A study of Mus musculus with 18 samples.

Results

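Immunoglobulin constant region genes encode the part of the antibody that does not vary with antigen. They were followed as 10 listed mouse genes, chosen by name: the heavy chain genes Ighm, Ighd, Ighg1, Ighg2b, Ighg2c, Ighg3 and Igha and the light chain genes Igkc, Iglc1 and Iglc2. Symbols were matched to the Ensembl gene IDs of the expression table, which holds 35275 IDs. Of the 10 genes, 8 were matched and all 8 entered the test of 11646 genes; Ighd and Iglc1 were not analysed here.

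RNA was sequenced from pan B cells of the spleen of C57BL/6 mice, in 6 groups of 3 libraries. The labels give no age, no sex and no source animal for a library, and p-values therefore measure only the spread between these libraries, which may be technical. In BRFc_60mer the cells first spent 1 h in 1000 ng/ml of mBaffR-mFc, by its name a fusion of the mouse BAFF receptor, which the series' design text describes as a reagent against the BR3 site of BAFF, and then 4 h in 100 ng/ml of BAFF 60mer, the form of the cytokine with 60 subunits. BRFc_3mer had the same pretreatment and the same concentration of BAFF 3mer, the form with 3 subunits, and BRFc had mBaffR-mFc and no BAFF. Ab_60mer, Ab_3mer and Ab had 1000 ng/ml of a control antibody for 1 h and then BAFF 60mer, BAFF 3mer or no BAFF. Replicates are numbered in the order of deposition.

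Values are FPKM, a gene's fragments divided by its length in kilobases and by the library total in M (mega). The 18 libraries held 12.2 to 25.4 M fragments (median 18.4 M), as recovered from the steps between low FPKM values. The labelled cell type had its markers, as the B cell genes Ms4a1, Cd79a, Cd79b, Pax5 and Cd22 summed to 2025 to 2349 FPKM in every library. Of 6 T cell markers, summing to 41.7 to 52.9 FPKM, the receptor genes Cd3e, Cd3d and Cd3g did not exceed 1.72 FPKM, while Lck, a kinase also found outside T cells, stood at 39.4 to 49.8 FPKM. Other cells of the spleen were visible, as the myeloid gene Lyz2 stood at 95.6 to 120.0 FPKM and the NK cell gene Klrd1 at 17.8 to 26.8 FPKM. The summed FPKM of 5 NK cell genes was not even between groups. It was 69.3 to 71.9 in BRFc_60mer, 79.5 to 83.4 in BRFc_3mer and 79.6 to 85.0 in BRFc. Under control antibody it was 65.9 to 68.9 in Ab_60mer, 71.4 to 76.4 in Ab_3mer and 82.4 to 86.9 in Ab. Connective tissue transcripts split the libraries. The summed FPKM of Col1a1, Col1a2, Col3a1, Sparc, Dcn and Bgn was 8.14 to 12.9 in 8 libraries, namely all of BRFc_60mer, all of Ab_60mer and replicates 1 and 2 of Ab_3mer, and 0 to 0.131 in the other 10. These 8 are called carrying libraries below.

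A B cell assembles a heavy and a light chain gene once, and the constant genes then set the class of the antibody. The heavy chain genes lie in a row, and a naive cell transcribes the nearest, Ighm and Ighd, as IgM and IgD. Class switch recombination joins the variable region to Ighg3, Ighg1, Ighg2b, Ighg2c, Ighe or Igha and removes the genes between. Before a switch, unrearranged constant genes give germline transcripts, and a signal from cytokine and CD40 or Toll-like receptors chooses which. Alternative polyadenylation gives each class a membrane form, the B cell receptor, and a secreted form. BAFF keeps mature B cells alive and is known to promote switching together with other signals.

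The heavy chain genes follow each other on the minus strand of chromosome 12 (GRCm38, GENCODE M21). Ighm lies at chr12:113418558-113422730, Ighg3 at chr12:113356224-113361232, Ighg1 at chr12:113325240-113330523, Ighg2b at chr12:113302965-113307933, Ighg2c at chr12:113285325-113288932 and Igha at chr12:113254830-113260236. Igkc is at chr6:70726435-70726966 on the plus strand and Iglc2 at chr16:19198396-19200351 on the minus strand. The 4 IgG genes are close relatives and differ most visibly in the hinge, the flexible joint whose cysteines bridge the heavy chains. Their hinge exons are shown because the results turn on telling Ighg1 from the other IgG genes. Each is exon 2 of the secreted transcript on the minus strand, with in-frame cysteine codons in capitals.
Ighg1, chr12:113329844-113329882: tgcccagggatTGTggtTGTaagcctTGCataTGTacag
Ighg2b, chr12:113307261-113307326: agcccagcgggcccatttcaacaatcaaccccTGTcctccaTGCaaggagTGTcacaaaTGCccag
Ighg2c, chr12:113288263-113288325: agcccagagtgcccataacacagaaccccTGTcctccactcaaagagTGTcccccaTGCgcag
Ighg3, chr12:113360529-113360576: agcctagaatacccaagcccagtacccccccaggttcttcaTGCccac
The exons run to 39 bases in Ighg1, 66 in Ighg2b, 63 in Ighg2c and 48 in Ighg3, and hold 4, 4, 3 and 1 cysteine codons in that order. Of all stretches of 50 bases in the annotated exons, 0.393% in Ighg1, 4.15% in Ighg2b, 5.49% in Ighg2c and 1.58% in Ighg3 also occur in a transcript of another gene. No stretch of 100 bases of these genes does. The read length and the handling of shared reads are not given in the sources used here, so a small exchange of fragments between IgG genes cannot be told apart from their own.

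Among the lambda light chain genes, Iglc2 and Iglc3 are closer still. The last 60 coding bases before the stop codon are shown, also on minus strands, since only Iglc2 was measured and fragments of Iglc3 may be counted with it; capitals mark bases that differ from Iglc2.
Iglc2, chr16:19198539-19198598: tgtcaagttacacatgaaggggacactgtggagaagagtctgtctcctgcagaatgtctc
Iglc3, chr16:19065368-19065427: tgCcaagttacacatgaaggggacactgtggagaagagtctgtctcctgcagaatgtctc
Iglc1, chr16:19061755-19061814: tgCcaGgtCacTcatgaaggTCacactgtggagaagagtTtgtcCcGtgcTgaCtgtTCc
In this window Iglc3 differs from Iglc2 at 1 base and Iglc1 at 13 bases. Of the 50-base stretches of Iglc2, 7.65% also occur in another gene, all of them in Iglc3, so Iglc2 values are uncertain as a measure of that gene alone. Ighm, Igha and Igkc share no 50-base stretch with another gene.

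Levels per length differed widely between the genes. Igkc, the kappa light chain, was the most abundant, at 4491 to 5275 FPKM over the 18 libraries with a median of 4964. Ighm, the IgM heavy chain, followed at 2114 to 2440 FPKM with a median of 2288. Iglc2 stood at 522 to 708 FPKM with a median of 644. The ranges of these 3 genes did not overlap.

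All switched genes lay far below. Igha, the heavy chain of IgA, the antibody of mucosal surfaces, ranged from 15.4 to 25.1 FPKM, and Ighg3, an IgG class typical of responses to carbohydrates, from 12.2 to 20.95 FPKM. Ighg2b ranged from 8.03 to 18.3 FPKM and Ighg2c, the C57BL/6 gene in the place of Ighg2a, from 6.23 to 10.46 FPKM. Ighg1, the IgG class favoured by interleukin 4 in the mouse, was the lowest member and the most variable, from 1.44 to 9.71 FPKM. Each of the ranges of Igha, Ighg3, Ighg2b, Ighg2c and Ighg1 overlaps its neighbour in this order. Ighe, the IgE gene and no member of the list, had 34 fragments over all libraries and at most 0.29 FPKM.

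The lengths behind these values matter for the order. The length recovered from the FPKM steps was 974 bases for Ighg1, 1010 for Ighg2b, 992 for Ighg3, 1034 for Igha and 323 for Igkc. Each equals the coding length with stop codon of an annotated transcript, which for the heavy chains is the shorter, secreted one. For Iglc2 it was 606, the exon length of a transcript with 2 exons. Ighm was divided by 1396 and Ighg2c by 1212 bases, which match no annotated transcript exactly. The values are 1 number per gene and separate neither the secreted from the membrane form nor germline from switched transcripts. In bulk RNA, fewer cells of a class and less RNA per cell cannot be told apart.

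**Figure D1:**
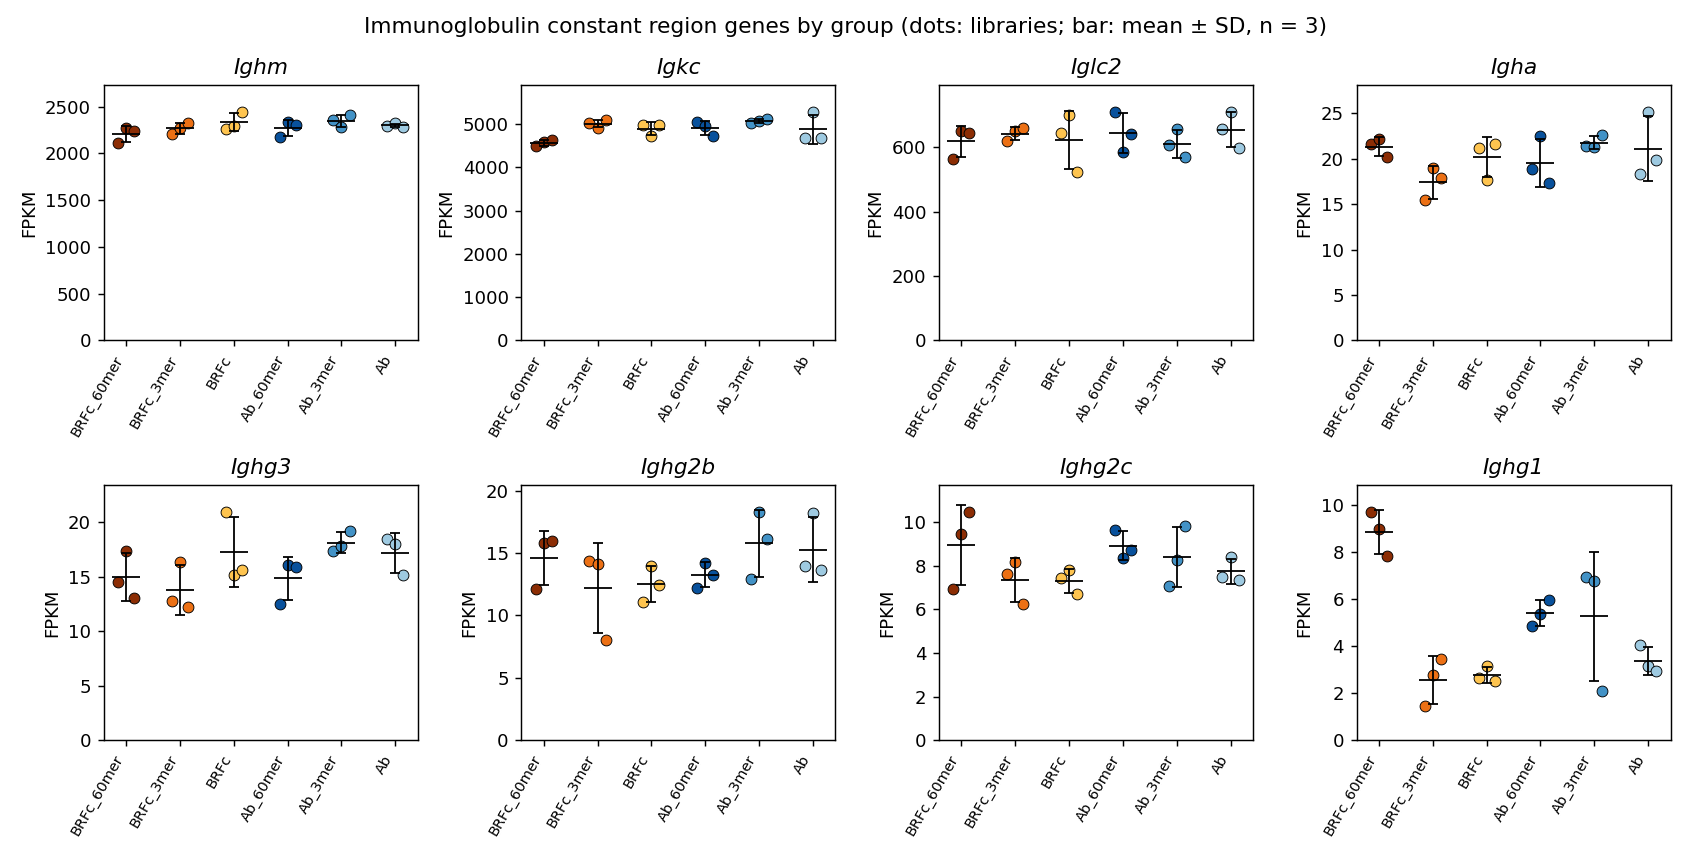
FPKM of the 8 measured constant region genes (vertical axis, from 0) in the 6 groups (horizontal axis); dots are libraries and bars the mean ± SD of 3. Ighm, Igkc and Iglc2 vary by at most 1.36-fold over all libraries, and Ighg1 is highest in BRFc_60mer, at 7.85 to 9.71 FPKM.

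The abundant genes varied little. The coefficient of variation over the 18 libraries was 3.39% for Ighm, 4.46% for Igkc and 8.05% for Iglc2. It was 11.8% for Igha, 15.2% for Ighg3, 17.7% for Ighg2b, 14.4% for Ighg2c and 52.8% for Ighg1. The spread within groups exceeded counting error: the variance of fragments was 3.23 times that of counting error for Ighg2c, 7.12 times for Ighg1 and 62.0 times for Iglc2, where every library had at least 5248 fragments. Ighg1 had 27 to 164 fragments per library, the fewest of the 8, so its relative counting error is the largest.

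Over all 6 groups, Ighg1 was the only member of the 8 to pass the F test (limma on log2(FPKM + 1), Benjamini-Hochberg over 11646 genes, adjusted p = 0.00998). Of all tested genes 8.93% passed. Among the other 7 members the smallest adjusted p was that of Ighg3, 0.263.

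Ighg1 was highest after BAFF 60mer under mBaffR-mFc. It stood at 9.71, 8.997 and 7.85 FPKM in BRFc_60mer, at 1.44, 2.77 and 3.45 in BRFc_3mer, and at 2.65, 3.17 and 2.50 in BRFc. Under control antibody it stood at 4.87, 5.37 and 5.96 FPKM in Ab_60mer, at 6.94, 6.77 and 2.08 in Ab_3mer, and at 4.06, 3.14 and 2.95 in Ab. All BRFc_60mer libraries lay above every other library of the series. The Ab_60mer libraries lay above those of Ab, and replicates 1 and 2 of Ab_3mer lay above all Ab_60mer libraries while replicate 3 was below all of Ab. The share of all tested genes with such separations was not counted.

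Ighg1 was higher in BRFc_60mer than in BRFc. The mean was 8.85 ± 0.938 FPKM in BRFc_60mer and 2.77 ± 0.347 in BRFc (SD, n = 3 each), a ratio of 3.19. On the log2(FPKM + 1) scale, which understates changes of low genes, the difference was 1.38 ± 0.274 (SE; limma adjusted p = 0.00689). It was the 1 member of 8 to pass, where 4.83% of all tested genes passed. Against BRFc_3mer, with a mean of 2.55 ± 1.02 FPKM, the difference was 1.51 ± 0.274 (limma adjusted p = 0.00381), again as the only 1 of the 8, against 5.16% of all genes. These comparisons share the BRFc_60mer libraries and are not separate evidence.

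Under control antibody the same comparison missed the threshold. Ighg1 averaged 5.40 ± 0.546 FPKM in Ab_60mer and 3.39 ± 0.593 in Ab (SD, n = 3 each). The log2 difference was 0.55 (95% interval -0.03 to 1.13; limma adjusted p = 0.189). With only these 6 libraries in the fit, the difference of 0.55 passed with a limma adjusted p of 0.0286, as did 9.04% of all genes in that fit. With a term for the connective tissue split, described next, it was -0.80 ± 0.301 (limma adjusted p = 0.441), where 0.137% of all genes passed. Of the 8 members 0 passed in limma, where 14% of all tested genes passed. An unadjusted p under 0.05 was found for 0 of the 8 and for 3452 of the 11646 genes. With voom, limma's test for counts, on recovered fragments 0 of the 8 passed, and 1579 of all genes. Against Ab_3mer, at 5.26 ± 2.76 FPKM, the difference was 0.15 (95% interval -0.43 to 0.73, limma adjusted p = 0.802). Again 0 of the 8 passed in limma, with 4.81% of all genes passing, and 0 in voom, with 558 of the 11646 genes passing. An unadjusted p under 0.05 was found for 0 of the 8 and for 2366 of all genes.

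The higher Ighg1 values coincided with the connective tissue transcripts. Ighg1 was 4.87 to 9.71 FPKM in the 8 carrying libraries and 1.44 to 4.06 FPKM in the other 10, with no overlap. Both comparisons in which it passed lie wholly across that split. Col3a1, a fibrillar collagen of connective tissue, was listed at 0 in all 3 libraries of BRFc and of Ab and in 2 of BRFc_3mer, and reached 5.34 FPKM at most. Of the 6 connective tissue genes, each was at 0 in 8 or 9 libraries. With the split as a term, which only the 3 Ab_3mer libraries inform, the Ighg1 difference was 0.03 ± 0.301 in BRFc_60mer against BRFc (limma adjusted p = 0.999) and 0.16 ± 0.301 against BRFc_3mer (adjusted p = 0.941), and neither these comparisons nor the F test called a member. That fit also called few other genes, 0.0859% of those tested in BRFc_60mer against BRFc, 0.129% against BRFc_3mer and 0.429% in the F test. The effect of BAFF 60mer on Ighg1 and that of the split cannot be told apart in these comparisons.

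Ab_3mer holds libraries on both sides of the split. Within it, all treated alike by their labels, Ighg1 was 6.94 and 6.77 FPKM in the carrying libraries and 2.08 in the other, a log2 difference of 1.35 ± 0.25 (limma adjusted p = 0.19, the lone library being assumed to vary like the other groups). Of all tested genes 0.0172% passed in that contrast. Ab_60mer against the 2 carrying Ab_3mer libraries gave -0.30 ± 0.187 (limma adjusted p = 0.501), and 2.11% of all tested genes passed there. Against the noncarrying Ab_3mer library alone it gave 1.05 ± 0.236 (limma adjusted p = 0.0407), where 1.34% of all genes passed; this contrast was added after seeing the data. Ighg1 thus stood lower in Ab_60mer than in carrying, and higher than in noncarrying, libraries of Ab_3mer.

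BRFc_60mer and Ab_60mer all carry, and their Ighg1 values did not overlap, at 7.85 to 9.71 FPKM in BRFc_60mer and 4.87 to 5.96 in Ab_60mer. The share of all tested genes that separate like this was not counted. The ratio of Ighg1 means was 1.64 and the log2 difference 0.62 (95% interval 0.04 to 1.20, limma adjusted p = 0.993, unadjusted p = 0.0368). The interval rests on a variance shared over the 6 groups, so it takes in the spread within Ab_3mer. The SD was 2.76 FPKM in Ab_3mer, 0.938 in BRFc_60mer and 0.546 in Ab_60mer. Of all tested genes 0.0258% passed in this comparison. Of the 8 members 0 passed in limma or voom, and voom passed 2 of the 11646 genes. Ighg1 was the 1 member with an unadjusted p under 0.05, which 540 of all genes had. The interaction, the BAFF 60mer difference under mBaffR-mFc minus that under control antibody, was 0.83 for Ighg1 (0.02 to 1.65, limma adjusted p = 0.901), where 0.00859% of all genes passed. With voom 0 of the 8 passed too, and 1 of the 11646 genes.

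**Figure D2:**
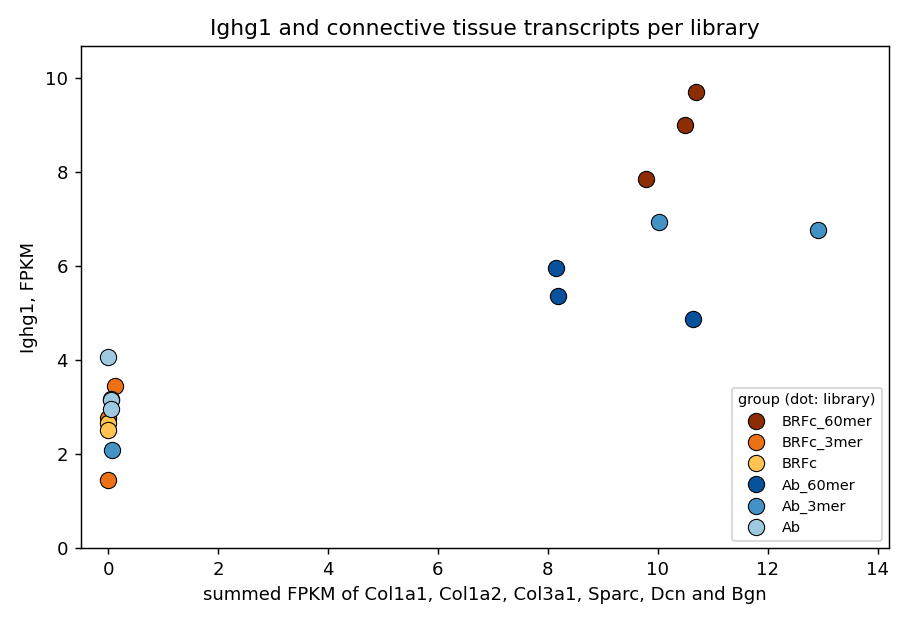
Ighg1 in FPKM (vertical axis) against the summed FPKM of 6 connective tissue genes (horizontal axis), 1 dot per library, coloured by group. The 8 libraries with a sum of 8.14 or more all lie at 4.87 FPKM of Ighg1 or higher and the 10 others at 4.06 or lower.

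Among the 8 carrying libraries, which come from 3 groups, Ighg1 did not follow the amount of these transcripts closely. Pearson's r was 0.302 (exact permutation p = 0.485, two-sided) and Spearman's rho 0.286 (exact permutation p = 0.501). The permutations ran across the 3 groups, whose Ighg1 ranges among these libraries do not overlap. These p therefore do not measure a relation within groups. Without the 2 libraries farthest from the median sum, r was 0.476 over 6. Among the other 10 the sum was at or near 0 and no relation was computed. It was the only relation across samples tested.

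Markers of antibody-forming cells were set beside Ighg1. The summed FPKM of 10 plasma cell genes was 568 to 595 in BRFc_60mer, 598 to 625 in BRFc_3mer and 552 to 621 in BRFc. Most of this sum is Mzb1, at 198 to 236 FPKM, and Irf4, at 157 to 214. Derl3 did not exceed 2.08 FPKM and Fkbp11 1.34. Whether the transcripts of this list come from plasma cells or other cells cannot be told in bulk RNA. Of the 10 genes, 8 were tested. In BRFc_60mer against BRFc 1.46% of all tested genes rose and 3.37% fell, and in Ab_60mer against Ab 5.04% rose and 8.94% fell. In both comparisons 0 of the 8 rose and 1 fell, Sdc1, the surface proteoglycan CD138 of plasma cells. It averaged 21.3 ± 2.04 FPKM in BRFc_60mer and 35.6 ± 2.001 in BRFc (SD, n = 3 each; log2 difference -0.72 ± 0.078, SE, limma adjusted p = 6.47e-05). In Ab_60mer it averaged 19.1 ± 0.918 FPKM and in Ab 35.7 ± 1.54 (-0.87 ± 0.078, adjusted p = 8.64e-06). Jchain, which joins IgM and IgA polymers, averaged 58.9 ± 2.22 FPKM in BRFc_60mer and 58.2 ± 5.65 in BRFc (SD, n = 3 each). Tnfrsf17, the receptor BCMA of plasma cells, was at 0 to 0.275 FPKM, with 0 in 4 libraries. The 6 germinal centre genes summed to 47.6 to 51.5 FPKM in BRFc_60mer, 38.2 to 39.2 in BRFc_3mer and 37.1 to 39.9 in BRFc. Under control antibody the sum was 41.1 to 47.2 in Ab_60mer, 38.5 to 40.1 in Ab_3mer and 39.4 to 42.1 in Ab. Most of this sum is Bcl6, a repressor that B cells also express outside germinal centres, at 27.6 to 38.8 FPKM. Gcsam did not exceed 0.275 FPKM. Of the 6 genes 5 were tested. In BRFc_60mer against BRFc 1 rose, Bcl6 (log2 difference 0.40 ± 0.050, SE, limma adjusted p = 0.000201), where 1.46% of all tested genes rose. In Ab_60mer against Ab 0 of the 5 passed, where 14% of all tested genes passed. Like Ighg1, the sum was above BRFc in all BRFc_60mer libraries; the part of these genes in the Ighg1 result was not tested.

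The other IgG genes did not pass where Ighg1 did. Ighg2c was 6.93, 9.47 and 10.46 FPKM in BRFc_60mer, and 7.42, 7.79 and 6.69 in BRFc. Ighg2b was 12.1, 15.8 and 15.9 FPKM in BRFc_60mer, and 11.1, 13.9 and 12.5 in BRFc. Both pairs of groups overlap. The log2 differences of 0.25 for Ighg2c (95% interval -0.02 to 0.52) and 0.20 for Ighg2b (-0.17 to 0.58) did not pass, nor did that of Ighg3, -0.19 (-0.47 to 0.09). Over all 8 members the median difference was 0.04, against -0.02 over all genes tested, and 5 of the 8 were above 0.

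Ighg1 took its largest share of IgG transcripts in BRFc_60mer. By FPKM it made up 18.8 ± 3.18% of the 4 IgG genes in BRFc_60mer, 7.40 ± 3.82% in BRFc_3mer and 6.97 ± 0.834% in BRFc (SD, n = 3 each). Under control antibody it made up 12.7 ± 0.75% in Ab_60mer, 11.1 ± 5.92% in Ab_3mer and 7.79 ± 1.35% in Ab. The shares within Ab_3mer were 15.7%, 13.2% and 4.41%, the last in the library without connective tissue transcripts.

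**Figure D3:**
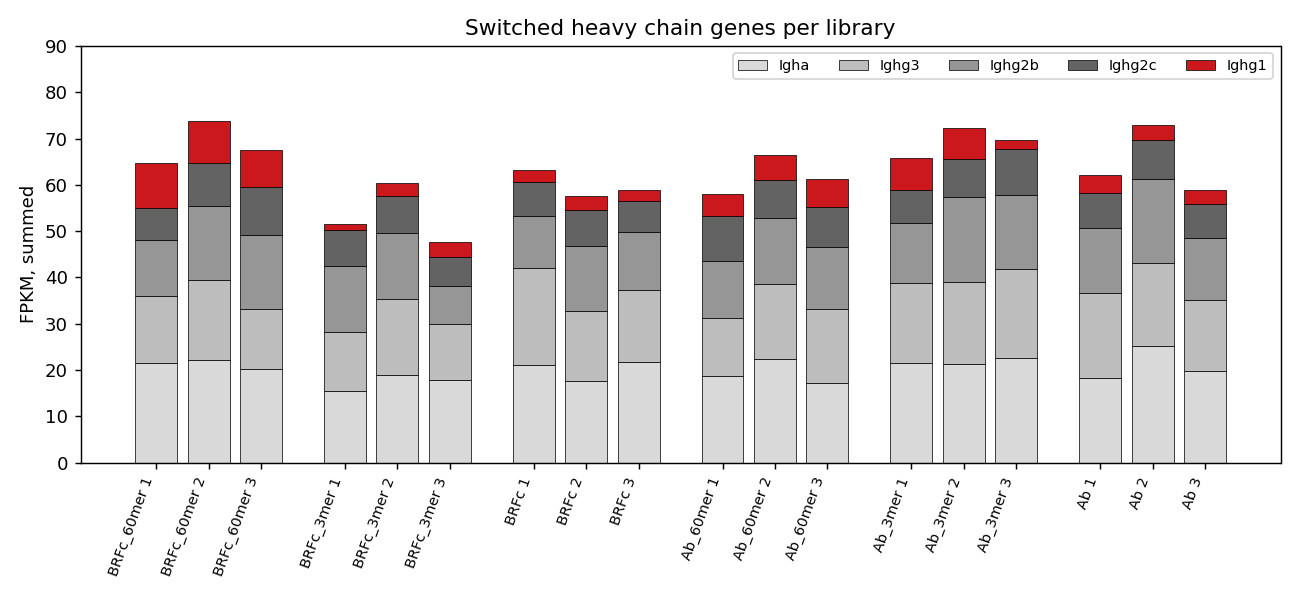
Stacked FPKM (vertical axis, from 0) of the 5 measured switched heavy chain genes in each library (horizontal axis, group and replicate). Totals run from 47.8 to 73.8 FPKM, and Ighg1 (red) is the smallest layer in every library except BRFc_60mer replicate 1.

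The switched genes together were a small part of heavy chain transcripts. Their summed FPKM as a share of that sum plus Ighm was 3.01 ± 0.117% in BRFc_60mer, 2.30 ± 0.291% in BRFc_3mer and 2.51 ± 0.192% in BRFc (SD, n = 3 each). In the antibody groups it was 2.65 ± 0.103% in Ab_60mer, 2.87 ± 0.187% in Ab_3mer and 2.73 ± 0.277% in Ab. The BRFc_60mer libraries, at 2.92% to 3.15%, lay above those of BRFc, at 2.36% to 2.73%. Without Ighg1, the summed switched genes came to 59.8 ± 4.86 FPKM in BRFc_60mer, 50.7 ± 6.70 in BRFc_3mer and 57.2 ± 3.13 in BRFc, and the BRFc_60mer range overlaps both others. No test was made on these shares.

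Ighm differed little between groups, and its intervals were the narrowest of the 8. For this gene the BRFc_60mer libraries stood at 2114, 2271 and 2240 FPKM, and those of BRFc at 2258, 2299 and 2440. The ranges overlap, and the log2 difference was -0.08 (95% interval -0.18 to 0.03). Under control antibody it was 2171, 2332 and 2306 FPKM in Ab_60mer, and 2295, 2321 and 2281 in Ab, a difference of -0.02 (-0.12 to 0.09). None of the 9 differences between pairs of groups passed for Ighm.

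Igkc was lowest in BRFc_60mer, at 4491, 4599 and 4625 FPKM. It was 5022, 4923 and 5087 FPKM in BRFc_3mer, and 4992, 4724 and 4977 in BRFc. The BRFc_60mer libraries lay below all libraries of both. The share of all tested genes whose groups separate fully was not counted. The log2 differences were -0.13 ± 0.057 against BRFc_3mer (limma adjusted p = 0.219) and -0.10 ± 0.057 against BRFc (adjusted p = 0.379), so neither passed. In Ab_60mer Igkc was 5046, 4950 and 4736 FPKM, and in Ab 4686, 5275 and 4674, with overlap and a difference of 0.01 (-0.11 to 0.13).

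Iglc2 stood at 563, 650 and 643 FPKM in BRFc_60mer, and at 645, 699 and 522 in BRFc, and the log2 difference was 0.00 (95% interval -0.21 to 0.21). The lowest and nearly the highest library of the series are in BRFc, so the spread within 1 group covers nearly the whole range. As a share of Igkc plus Iglc2 FPKM, Iglc2 was 11.4% on average, from 9.49% to 12.9%. Since Iglc2 was divided by 606 bases and Igkc by 323, the share by fragments was larger, from 16.4% to 21.7%. The ratio of Igkc to Ighm was 2.02 to 2.32 over all libraries.

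For Igha, Ighg3 and Ighg2b, the largest of the 9 differences between pairs of groups was that between the 3mer groups. Igha was 15.4, 19.0 and 17.9 FPKM in BRFc_3mer, and 21.4, 21.3 and 22.6 in Ab_3mer. Ighg3 was 12.8, 16.4 and 12.2 FPKM in BRFc_3mer, and 17.4, 17.8 and 19.2 in Ab_3mer. For both genes every BRFc_3mer library lay below every Ab_3mer library. How many of all tested genes separate in this way was not counted. The log2 differences were -0.31 ± 0.11 for Igha and -0.38 ± 0.134 for Ighg3 (limma adjusted p = 0.998 for both). That of Ighg2b, whose 3mer groups overlap, was -0.375 ± 0.178 (limma adjusted p = 0.998, unadjusted p = 0.05002). Of the 8 members 0 passed in limma or voom, and 3, Ighg1, Igha and Ighg3, had an unadjusted p under 0.05, in a comparison where 0.0% of all tested genes passed and 452 had such a p. For Ighg1, at -0.74 (95% interval -1.32 to -0.16), the 2 carrying Ab_3mer libraries set the difference, which was 0.16 ± 0.236 against the noncarrying one alone. In BRFc_60mer against BRFc_3mer, Igha was at 0.28 ± 0.11 (limma adjusted p = 0.17, unadjusted p = 0.0213). It was 1 of 3 members with an unadjusted p under 0.05 there, as were 2211 of the 11646 genes tested.

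BAFF 3mer alone called no member. Against BRFc, the differences of the 7 members other than Ighg1 in BRFc_3mer ran from -0.30 for Ighg3 to 0.06 for Iglc2, and that of Ighg1 was -0.13 (95% interval -0.70 to 0.45). Here 0 of the 8 passed in limma or voom, and 0.0% of all tested genes passed. An unadjusted p under 0.05 was found for 1 of the 8 (Ighg3) and for 388 of the 11646 genes. Against Ab, the Ab_3mer differences of those 7 ran from -0.10 for Iglc2 to 0.10 for Ighg2c, with intervals between -0.33 and 0.42. Ighg1 was at 0.40 (-0.18 to 0.98), with replicates 1 and 2 above and replicate 3 below all Ab libraries. In this comparison too 0 of the 8 passed in limma or voom, and 0.0% of all genes passed. An unadjusted p under 0.05 was found for 0 of the 8 and for 632 of the 11646 genes. The interaction of BAFF 3mer with the pretreatment likewise called 0 of the 8 in limma or voom, with 0.0% of all genes passing. It had 0 unadjusted p under 0.05 among the 8 and 560 among the 11646 genes.

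The pretreatments without BAFF did not separate the members. In BRFc against Ab the differences ran from -0.26 for Ighg2b (95% interval -0.64 to 0.11) to 0.02 for Ighm (-0.09 to 0.13). None of the 8 passed, 0 in limma and 0 with voom, and 0.0% of all tested genes passed. An unadjusted p under 0.05 was found for 0 of the 8 and for 688 of the 11646 genes. In no comparison did a member other than Ighg1 pass, and their log2 differences between pairs of groups lay between -0.38 and 0.28.

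**Figure D4:**
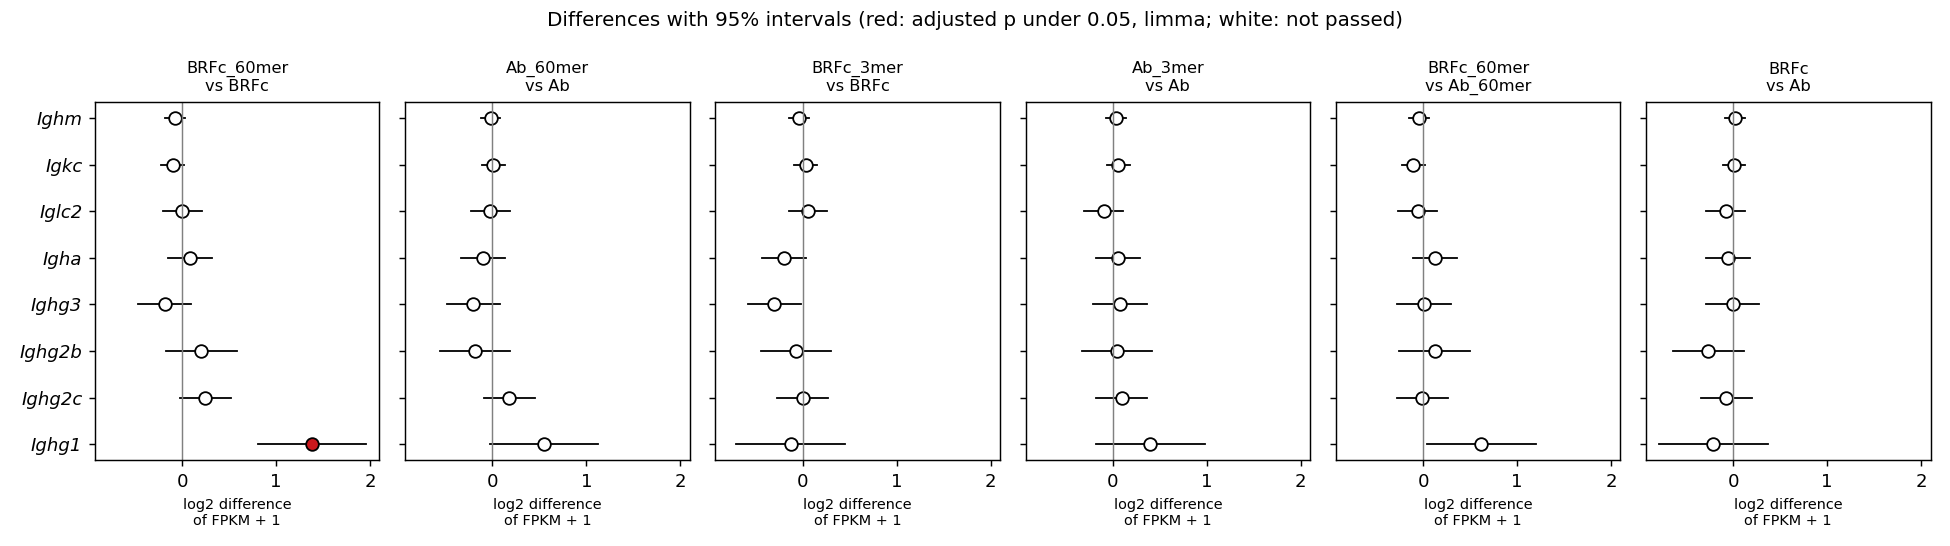
Differences on the log2(FPKM + 1) scale (horizontal axis, first group minus second) with 95% intervals for the 8 members (vertical axis) in 6 comparisons; red marks an adjusted p under 0.05. Ighg1 in BRFc_60mer against BRFc, at 1.38, is the only red point, and the intervals of Ighm and Igkc are the narrowest.

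Genes that act on the constant region locus were read from lists of names. Of 23 genes of class switch recombination and its repair, 22 were tested; in Ab_60mer against Ab 2 rose and 0 fell, where 5.04% of all tested genes rose and 8.94% fell. In BRFc_60mer against BRFc 0 passed by limma or voom and 1 had an unadjusted p under 0.05, where 1.46% of all genes rose and 3.37% fell by limma. Of the 11646 genes 712 passed by voom there and 2179 had an unadjusted p under 0.05. Rif1, which protects broken ends from resection, averaged 38.2 ± 2.83 FPKM in Ab_60mer and 31.2 ± 1.45 in Ab (SD, n = 3 each; log2 difference 0.28 ± 0.061, limma adjusted p = 0.00664). Prkdc, the catalytic subunit of the DNA-dependent kinase of end joining, was 10.9 ± 0.66 and 8.92 ± 1.07 FPKM in those groups (0.26 ± 0.075, adjusted p = 0.0282). The list's median difference was 0.04 in both comparisons, against -0.02 over all genes tested.

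Transcription factors of immunoglobulin genes were called in both comparisons of BAFF 60mer with no BAFF. Of 19 listed, 18 were tested, and 2 rose and 1 fell in Ab_60mer against Ab and likewise 2 rose and 1 fell in BRFc_60mer against BRFc. Of all tested genes 14% passed in Ab_60mer against Ab, near the list's share, and 4.83% in BRFc_60mer against BRFc. Spib, an ETS factor that acts on light chain enhancers, averaged 249.8 ± 3.67 FPKM in BRFc_60mer and 192.4 ± 2.91 in BRFc (SD, n = 3 each; 0.37 ± 0.04, limma adjusted p = 5.52e-05). Pou2af1, the coactivator OCA-B of octamer sites in immunoglobulin promoters, was 451.6 ± 5.35 FPKM in BRFc_60mer and 356.2 ± 21.4 in BRFc (0.34 ± 0.051, adjusted p = 0.00088). Both also rose in Ab_60mer against Ab (0.36 ± 0.04 and 0.35 ± 0.051; adjusted p = 3.83e-05 and 0.000407) while Igkc stood at 0.01 and Ighm at -0.02 there. The fall in BRFc_60mer was that of Foxo1, a factor needed for class switching and named after its values were seen, which averaged 39.3 ± 0.33 FPKM in BRFc_60mer and 46.9 ± 4.7 FPKM in BRFc (log2 difference -0.24 ± 0.060, SE, limma-trend adjusted p = 0.0242). Spi1, the related factor PU.1, fell in Ab_60mer against Ab (-0.38 ± 0.093, adjusted p = 0.0136) and was at -0.21 ± 0.093 in BRFc_60mer against BRFc (adjusted p = 0.238).

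Genes of immunoglobulin mRNA processing and of antibody assembly were not called by limma in either comparison of BAFF 60mer with no BAFF. Among all tested genes 4.83% passed in BRFc_60mer against BRFc and 14% in Ab_60mer against Ab, so 0 calls in lists this short says little. An unadjusted p under 0.05 was found for 2179 and 3452 of the 11646 genes in that order, and voom called 712 and 1579. Of 7 processing genes 6 were tested. In BRFc_60mer against BRFc 0 passed by limma or voom, with 1 at an unadjusted p under 0.05, and in Ab_60mer against Ab 0 passed by either, with 0 at such a p. Zfp318, which permits IgD expression, was at -0.04 ± 0.049 in BRFc_60mer against BRFc. Of 14 assembly and secretion genes 13 were tested. In BRFc_60mer against BRFc 0 passed by limma and 1 by voom, with 1 at an unadjusted p under 0.05. In Ab_60mer against Ab 0 passed by limma or voom, with 3 at such a p. Cd79a, which anchors the B cell receptor, was at -0.10 ± 0.058 in BRFc_60mer against BRFc. Of 17 other constant, joining and lambda variable segments 11 were tested. The joining segment Igkj4 averaged 532.7 ± 38.5 FPKM in Ab_60mer and 622.3 ± 25.9 in Ab (SD, n = 3 each; -0.23 ± 0.068, limma adjusted p = 0.0367), and 491.3 ± 4.97 in BRFc_60mer and 626.6 ± 48.0 in BRFc_3mer (-0.35 ± 0.068, adjusted p = 0.0066). Igkj4 did not pass in BRFc_60mer against BRFc (-0.13 ± 0.068, limma adjusted p = 0.338) or in Ab_60mer against Ab_3mer (-0.12 ± 0.068, adjusted p = 0.328). It was the only 1 of the 11 to pass by limma in Ab_60mer against Ab, where 14% of all tested genes passed. The same held in BRFc_60mer against BRFc_3mer, where 5.16% passed. Voom called Igkj4 in BRFc_60mer against BRFc_3mer, where it called 609 of the 11646 genes, and not in Ab_60mer against Ab.

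Likeness was measured as Pearson's r of log2(FPKM + 1) over the 18 libraries after subtracting group means, and is given as a description; libraries share depth and composition. Between members, r ran from -0.55 to 0.685 with a median of 0.111 over 28 pairs, and the highest values were those of Igha with Igkc, 0.685, and Ighg2b with Ighg2c, 0.684. The lowest was that of Ighg1 with Ighg2c. Ighg1 was most like Cdca3 (0.839), Col3a1 (0.814) and Gm47283 (0.796). Without replicate 3 of Ab_3mer, the noncarrying library of that group, these r were 0.689, 0.0457 and 0.0791, so the likeness to Col3a1 and Gm47283 rests on that 1 library. Iglc2 was most like Mrpl51 (0.947), Rpl15 (0.921) and Rpl27a (0.916), and its median r with 75 ribosomal protein genes was 0.836, against -0.05 with all genes tested. For Ighm that median was -0.38 and for Igkc 0.24.

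The closest genes of the others were Scamp3 (0.946), Cdkn1b (0.937) and Cdc25b (0.923) for Ighm, and mt-Atp6 (0.823), Zbed4 (0.794) and Smim19 (0.782) for Igkc. Igha was closest to Dazap2 (0.832), Fbxo3 (0.827) and Tmem167b (0.814), and Ighg3 to Saa3 (0.869), Nudt1 (0.861) and As3mt (0.812). Ighg2b was closest to C330007P06Rik (0.873), Trmt10b (0.814) and Zfp995 (0.813), and Ighg2c to Gm4724 (0.867), Abhd16a (0.85) and Zfp72 (0.834).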

How the data were processed

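The 18 libraries were grouped by their treatment labels. The deposited values are FPKM, computed by a sequencing company for the authors per the labels' protocols; aligner, counting tool and genome build are not given in the sources used here. Of 35275 gene IDs, 34490 matched GENCODE mouse release M21, the source of symbols, positions and sequences (GRCm38). No sample column was left out. Library totals and gene lengths were recovered from FPKM steps; for all 11646 tested genes a length was found at which the values of all 18 libraries were whole fragments within 0.02. With annotated lengths of single-transcript genes, 84.1% to 85.1% of low values were whole within that limit.

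Genes averaging 1 FPKM or more were tested on log2(FPKM + 1) with limma 3.58.1 in R 4.3.3 (trended variance, 1 residual variance over 6 groups), in 9 pairs of groups, 2 interactions and an F test; the threshold was an adjusted p of 0.05 (Benjamini-Hochberg). Libraries were called carrying above 1 FPKM of summed connective tissue genes. All members were named, up to 4 passing genes of each context list with the smallest p in Ab_60mer against Ab (or the 2 most abundant), and the 3 genes most like each member; of the abundant genes 1 per list is given, and Jchain and other markers were named after their values were seen. Some listed genes are not reported here and were left out of counts and sums. The members and lists were chosen with earlier results of these data known. The fit was tested on simulated data. Alternatives were another pseudocount (0.1), other filters, rescaling, quality weights, fewer groups, added terms and leaving out each library; voom on recovered fragments and single sides of Ab_3mer were added after seeing the data. Python 3.11.15 and matplotlib 3.10.9 were used.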

Additional observations from a re-analysis of the deposited data

How the results depend on the processing

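Of 1557 recomputed differences of members, 1553 kept their direction where called and their side of the threshold. Of the rest 2 were weaker, 2 were stronger and 0 reversed, and all 4 changes were for Ighg1. A reversal was counted only where a difference passed in either setting. Among the 1553, 87 that passed in neither setting changed sign. They include Ighg1 in Ab_60mer against Ab, from 0.55 to -0.80 with the connective tissue term. Fitting only the groups compared gave 1 called member in Ab_60mer against Ab (9.04% of all genes), and the noncarrying Ab_3mer library alone gave 1 in Ab_60mer against Ab_3mer (1.34%). A minimum mean of 5 FPKM gave 0 in BRFc_60mer against BRFc, 0 in BRFc_60mer against BRFc_3mer and 0 in the F test, because Ighg1, with a mean of 4.70 FPKM, was then not tested. The connective tissue term also gave 0 in these 3; it is estimated from 2 Ab_3mer libraries against 1. Each library was also left out in turn, and the comparisons that include its group and the F test were refitted. This changed no count of called members. The Ighg1 difference between BRFc_60mer and BRFc then ranged from 1.32 to 1.46, with limma adjusted p from 0.0166 to 0.036. It was not refitted without libraries of the other groups. With voom it was 1.66. The 48 recomputed shares stayed within the SD of their groups. With 3 libraries a group, a median or a mean without 1 library cannot move further, so that check could not fail. Adding Iglc3 and Iglc4 was not run. No paired analysis was possible because the labels give no replicate numbers. Position in the order of deposition, which pairs no samples by the labels, was fitted as a term and changed no call of a member. Over all genes that term gave 1105 calls in BRFc_60mer against BRFc (563 without it) and 2428 in Ab_60mer against Ab (1628 without it). In the same order, quality weights gave 1386 and 1974, fitting only the groups compared 139 and 1053, and the connective tissue term 10 and 16. Leaving out single libraries of the groups compared gave 242 to 731 and 756 to 1668. Ighg1 had the fewest fragments of the members, 27 to 164 per library, and its variance within groups was 7.12 times counting error.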
